A study of Mus musculus with 4 samples.

Results

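Mitochondrial ribosomal proteins are the protein components of the ribosome that works inside mitochondria. Members were chosen by name alone: every non-control array probe whose gene name in the files starts with Mrpl (large subunit) or Mrps (small subunit) followed by a digit. The rule took 124 of the 41174 probes and 75 genes, of which 46 genes (75 probes) carry a large-subunit name and 29 genes (49 probes) a small-subunit name. A probe entered the test if the scanner software marked both LB1 arrays, or both control arrays, as well above background for it, which held for 118 of the 124 member probes, 70 large and 48 small. The 6 untested probes belonged to Mrpl3, Mrpl27, Mrpl33, Mrpl41, Mrpl52 and Mrps18b, each of which kept at least 1 tested probe. Of the member probes, 113 were well above background on all 4 arrays.

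The data are livers of 4 female BALBc mice, 2 of the treatment group LB1 and 2 of the control group, each on 1 one-colour Agilent array of 60-base probes, 20 days after inoculation, in a study of a Lactobacillus isolate from ostrich. The labels give neither the age of the mice nor what the control mice received, and the title of the LB1 arrays does not say what LB1 stands for. The LB1 arrays were dimmer: their processed signals had 75th percentiles of 146.9 and 80.8 intensity units for LB1 replicates 1 and 2, against 410.9 and 414.7 for control replicates 1 and 2. All levels below are therefore log2 signals minus the 75th percentile of their own array, and a difference is LB1 minus control on that log2 scale. With 2 arrays a group, p-values measure the spread between these arrays, and an exact two-sided permutation test of a single value has 6 assignments and cannot go below p = 0.333.

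The mitochondrial ribosome translates the few proteins that mitochondrial DNA encodes, all of them subunits of the respiratory chain and the ATP synthase. Its own proteins are encoded in the nucleus, made in the cytosol and imported, so that their supply has to be matched to the ribosomal RNAs of the organelle. Liver cells are rich in mitochondria, and the promoters of these genes are known for sites of NRF1, of ETS-family factors such as GABP, and of YY1.

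Promoters of RefSeq (GRCm38.p6), each with 250 bases before the transcript start and 50 after it, were found for 66 of the 75 genes. The NRF1 motif (GCGCA and GCGC with any 1 base between them), read on both strands, stood in 12 of them (18.2%), against 5.19% of the promoters of all 27025 genes. The ETS letters CCGGAAG stood in 24 (36.4%), against 9.93%, and the YY1 letters AAGATGGC in 11 (16.7%), against 3.19%. At least 1 of the motifs stood in 40 of the 66 (60.6%), against 16.4% of all promoters, and no match of one motif overlapped a match of another in a member promoter. By direction of change, 7 of 11 promoters of genes that rose held one, 5 of 5 of genes that fell, and 28 of 50 of genes that did not pass. A match is a run of letters and not a site shown to be bound. The promoters of 2 genes that rose and 2 that fell in LB1 livers are shown, with the matches in capitals. Mrpl14 (chr17:45686099-45686398, plus strand) has the NRF1 motif from base 5 after the start, and Mrps12 (chr7:28741772-28742071, minus strand) has the ETS letters from base 2 and the YY1 letters, on the opposite strand, from base -199. Mrpl9 (chr3:94443086-94443385, plus strand) has the NRF1 motif from base -28, and Mrps23 (chr11:88204138-88204437, plus strand) has the ETS letters, on the opposite strand, from base 16.
Mrpl14: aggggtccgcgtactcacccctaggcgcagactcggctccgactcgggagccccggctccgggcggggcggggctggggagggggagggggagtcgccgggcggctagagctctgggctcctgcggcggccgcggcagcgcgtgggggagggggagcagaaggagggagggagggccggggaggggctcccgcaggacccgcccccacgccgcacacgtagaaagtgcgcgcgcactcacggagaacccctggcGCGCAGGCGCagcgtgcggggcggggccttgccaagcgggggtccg
Mrps12: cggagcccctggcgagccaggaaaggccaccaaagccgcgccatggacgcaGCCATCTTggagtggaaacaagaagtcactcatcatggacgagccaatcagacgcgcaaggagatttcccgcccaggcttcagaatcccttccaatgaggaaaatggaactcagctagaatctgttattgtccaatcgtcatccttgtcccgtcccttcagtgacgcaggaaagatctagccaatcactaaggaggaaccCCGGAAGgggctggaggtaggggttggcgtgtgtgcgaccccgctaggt
Mrpl9: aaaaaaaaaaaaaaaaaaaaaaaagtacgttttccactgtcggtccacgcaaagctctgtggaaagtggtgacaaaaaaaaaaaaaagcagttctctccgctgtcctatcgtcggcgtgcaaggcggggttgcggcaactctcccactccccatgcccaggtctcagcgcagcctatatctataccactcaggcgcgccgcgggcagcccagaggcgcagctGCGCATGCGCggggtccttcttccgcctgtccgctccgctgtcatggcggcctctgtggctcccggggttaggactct
Mrps23: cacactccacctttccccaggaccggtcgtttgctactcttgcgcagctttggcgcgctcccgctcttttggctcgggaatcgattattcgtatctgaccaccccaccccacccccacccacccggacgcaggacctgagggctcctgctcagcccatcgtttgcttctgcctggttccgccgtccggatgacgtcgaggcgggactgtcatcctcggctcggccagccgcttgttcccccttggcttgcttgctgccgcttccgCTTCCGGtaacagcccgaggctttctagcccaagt

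In LB1 livers the members moved in both directions, and their median difference lay slightly below that of all tested probes. Of the 118 tested member probes, 18 rose, 13 fell and 87 did not pass (limma, Benjamini-Hochberg adjusted p under 0.05 over all 22969 tested probes), so that 26.3% were called, against 32.4% of all tested probes. Among all tested probes 19.2% rose and 13.2% fell. The median member difference was -0.053 (interquartile range -0.46 to 0.50, from -2.54 to 3.57 in all), against 0.16 over all tested probes. It was 0.09 on slide 1 and -0.21 on slide 2, each slide holding 1 LB1 and 1 control array, and 97 of the 118 probes had the same sign on both. Both LB1 arrays lay above both control arrays for 45 probes (43.8% of all tested probes did so) and below them for 46 (32.3% of all), and the groups overlapped for 27. In whole tissue, fewer cells of a type and less RNA per cell cannot be told apart.

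Taking each gene by its brightest probe, 14 genes rose, 5 fell and 56 did not pass, a called share of 25.3% against 31.5% of all 15781 tested genes (21.7% higher, 9.78% lower). The median gene difference was 0.11, against 0.29 over all tested genes. The number of rises depended on the scaling: quantile normalization, which gives every array the same distribution, left 6 of the 14, with 9 higher and 16 lower probes in all, and the array median as the reference left none of the 14, with 1 probe higher and 41 lower. Under quantile normalization 10.7% of all tested probes rose and 17.3% fell, and under the array median 7.2% rose and 31% fell. All 5 falls passed under both. The array median lowers every difference by the same amount, so it can only deepen falls and shrink rises, and their passing there adds no support. Quantile normalization, which lowered the member probe median to -0.22, called 28% of all tested probes and the array median 38.2%. With normexp background correction 25 member probes rose and 54 fell, where 69.6% of all tested probes were called (49.4% higher, 20.2% lower). With the rounded table of the whole series 25 rose and 40 fell, where 62.9% of all were called (46.5% higher, 16.4% lower). That table holds mean signals without the background taken off, a different measure from the processed signals of the other counts. With the slide as a block, 14 probes rose and 12 fell, and 11 of the 14 gene rises and 4 of the 5 gene falls passed. Without control replicate 1 the median member probe difference was -0.057, against 0.16 over all tested probes. Without control replicate 2 it was 0.0096, against 0.15. In these fits, which leave 1 control array, almost none of all tested probes passed. No gene call held without either control array. Without LB1 replicate 1 the median member probe difference was -0.14, against 0.12 over all tested probes. Without LB1 replicate 2, the dimmest array, it turned positive, 0.051 against 0.20.

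**Figure D1:**
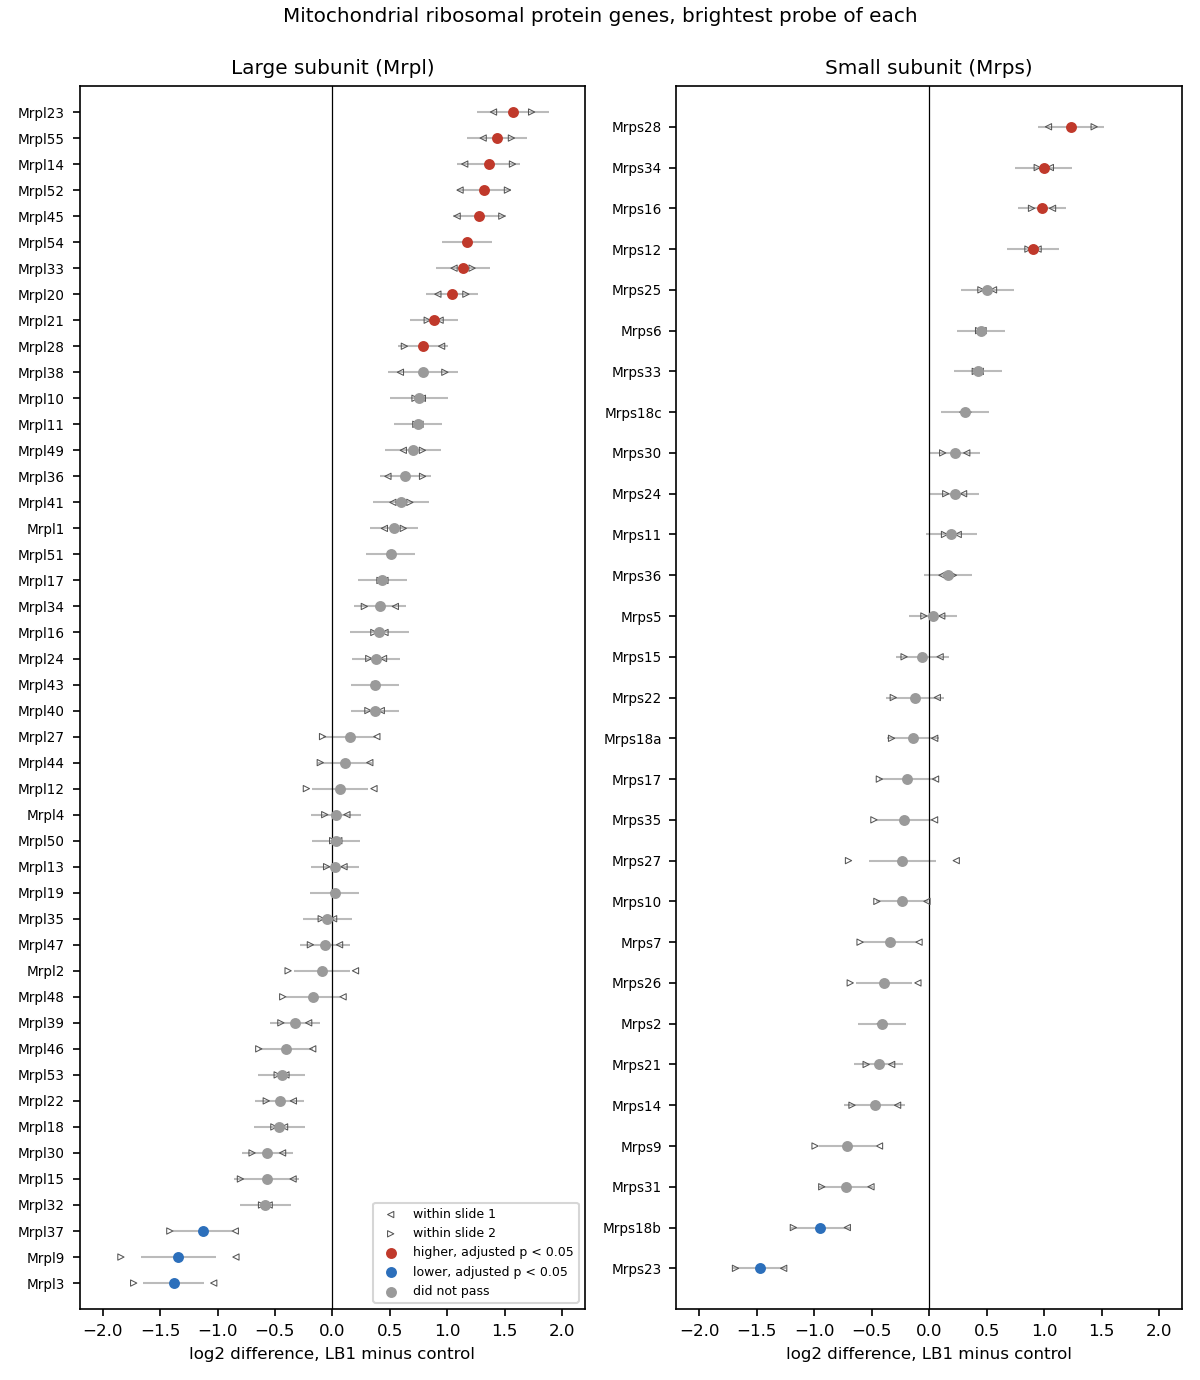
Log2 difference (LB1 minus control) of each mitochondrial ribosomal protein gene by its brightest probe, large subunit on the left and small on the right: circles give the difference over 4 arrays, bars its standard error, and triangles the difference within each slide. The genes run between -1.48 (Mrps23) and 1.57 (Mrpl23), with 14 called higher and 5 called lower. With quantile normalization 6 of the 14 rises and all 5 falls passed. The array median, which lowers every difference by the same amount, left none of the rises and all 5 falls.

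Of the 46 large-subunit genes 10 rose and 3 fell, a share of rises equal to the 21.7% of all tested genes that rose, and their median difference was 0.37, against 0.29 over all tested genes. That order depended on the scaling: the 2 medians were 0.058 and 0.050 with quantile normalization, and -0.18 and 0.37 with normexp. With the rounded table of the whole series they were 0.051 and 0.42. Of the 29 small-subunit genes 4 rose and 2 fell, with a median of -0.12. The medians thus differed by 0.49 between the subunits, by 0.31 on slide 1 and 0.61 on slide 2, and by 0.28 with quantile normalization and 0.28 with normexp background correction. Counted over all probes in place of the brightest, the gap was 0.15 (11 higher and 8 lower of 70 large-subunit probes with a median of 0.03, 7 and 5 of 48 small-subunit probes with a median of -0.12), and within slide 1 it was 0.01. Without LB1 replicate 2 the gap was 0.018 over all probes and 0.36 by gene. No test was made of the gap, since probes and genes are not replicates. Mrps30 and Mrps18a carry small-subunit names, but their proteins sit in the large subunit of the mammalian particle. Placed by position, 10 of 48 large-subunit genes rose and 3 fell (median 0.29), against 4 and 2 of 27 small-subunit genes (median -0.12).

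Among the large-subunit rises, Mrpl23, whose protein lines the exit of the polypeptide tunnel, had levels of 6.62 and 7.29 in LB1 livers, against 5.22 and 5.55 in control livers. Both LB1 arrays lay above both control arrays, a difference of 1.57 (SE 0.31, 2.96-fold, limma adjusted p = 0.0269). Mrpl55, a homologue of bacterial L31 that sits at the central protuberance, had 5.82 and 6.28 in LB1 livers and 4.51 and 4.72 in control livers. It rose by 1.43 (SE 0.26, limma adjusted p = 0.0243), again without overlap. Mrpl14, a core protein of the face that meets the small subunit, had 7.77 and 8.34 in LB1 livers, against 6.62 and 6.77 in control livers. Its rise of 1.36 (SE 0.28, limma adjusted p = 0.0277) shrank with quantile normalization to 0.67, which was not called (limma adjusted p = 0.0722).

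Mrpl52, a mitochondrion-specific protein of the large subunit, had 6.40 and 6.75 in LB1 livers and 5.29 and 5.23 in control livers. The groups lay 1.32 apart (SE 0.24, limma adjusted p = 0.0242) with no overlap. Mrpl45, which faces the inner membrane at the tunnel exit, had 4.27 and 4.61 in LB1 livers, against 3.19 and 3.13 in control livers. It rose by 1.28 (SE 0.23, limma adjusted p = 0.0243) on this probe, while another probe of the gene lay lower in LB1 livers, as given further on. Mrpl54 had 4.50 and 4.67 in LB1 livers and 3.33 and 3.49 in control livers, a rise of 1.17 (SE 0.22, limma adjusted p = 0.0248). Mrpl33, a small homologue of bacterial L33, had 6.07 and 6.40 in LB1 livers and 5.01 and 5.18 in control livers, 1.14 higher (SE 0.24, limma adjusted p = 0.0287). LB1 arrays stood above control arrays in each of these genes, and Mrpl33 lost its call with quantile normalization. The remaining large-subunit rises were Mrpl20 (1.04), Mrpl21 (0.88) and Mrpl28 (0.79), of which Mrpl21 passed with quantile normalization.

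The small-subunit rises were Mrps28, Mrps34, Mrps16 and Mrps12, and none of the 4 passed with quantile normalization in limma (adjusted p between 0.0591 and 0.107, and all 4 passed at an unadjusted p under 0.05). Mrps28, a homologue of bacterial S1, had 5.93 and 6.53 in LB1 livers, against 4.89 and 5.10 in control livers, a difference of 1.24 (SE 0.29, limma adjusted p = 0.0342). Mrps16, which is mutated in an inherited human deficiency of mitochondrial translation, had 6.69 and 6.54 in LB1 livers and 5.62 and 5.65 in control livers. It stood 0.98 higher (SE 0.21, limma adjusted p = 0.0304), with tight pairs in both groups. Mrps12, a protein of the decoding centre, had 4.16 and 4.31 in LB1 livers, against 3.21 and 3.45 in control livers, 0.90 higher (SE 0.22, limma adjusted p = 0.0385). Mrps34, a mitochondrion-specific protein, lay 1.0 higher. Of the rises, Mrps28, Mrps34, Mrps12 and Mrpl28 lost their call without LB1 replicate 2.

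The 5 falls passed under quantile normalization, and 4 of them, all but Mrps18b, also passed with normexp background correction. Both settings lowered the member probe median, from -0.053 to -0.22 and -0.32, so passing there is not separate support. The 5 falls passed under the array median too, which lowers every difference by the same amount and so can only deepen a fall. Mrps23, a mitochondrion-specific protein of the small subunit, had -0.21 and -0.46 in LB1 livers, against 1.06 and 1.22 in control livers. It was 1.48 below control (difference -1.48, SE 0.23, limma adjusted p = 0.0219). A second probe, which shares 21 bases with the first, had -0.47 and -0.85 in LB1 livers and 1.0 and 1.06 in control livers, a difference of -1.69 (SE 0.24, limma adjusted p = 0.0212). The probes lie at chr11:88018849-88023401 and chr11:88023381-88023613 (mm9, plus strand, coordinates spanning an intron), and since part of their sequence is the same they are not independent of each other. They are shown 5′ to 3′ with the shared bases in capitals.
Mrps23 probe at base 226: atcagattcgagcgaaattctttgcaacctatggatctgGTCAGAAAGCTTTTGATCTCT
Mrps23 probe at base 265: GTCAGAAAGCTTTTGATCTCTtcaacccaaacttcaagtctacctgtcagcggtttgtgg

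Mrpl3, a homologue of bacterial L3 near the peptidyl transferase centre and the site of an inherited human deficiency, fell on each of its 3 tested probes. The brightest had 2.19 and 1.72 in LB1 livers, against 3.22 and 3.45 in control livers, a difference of -1.38 (SE 0.26, limma adjusted p = 0.0255). A neighbour downstream had a difference of -1.31 (SE 0.26, limma adjusted p = 0.0271), and the most upstream probe, which begins at base 771 of the transcript, had the largest fall of any member probe, -2.54 (SE 0.40, limma adjusted p = 0.022). On that probe the LB1 arrays read -0.33 and -1.40, against 1.59 and 1.77 for control arrays, so LB1 replicate 2 lay lowest. The probe spans an exon junction at chr9:104966444-104973754 (mm9, plus strand) and has this sequence.
Mrpl3 probe at base 771: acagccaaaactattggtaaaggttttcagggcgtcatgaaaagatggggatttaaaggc

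Mrpl9, a homologue of bacterial L9, had 0.25 and -0.52 in LB1 livers, against 1.09 and 1.32 in control livers. It was lower by a difference of -1.34 (SE 0.33, limma adjusted p = 0.0374), and LB1 replicate 2 again lay lowest. Mrpl37, a mitochondrion-specific protein, had 0.67 and 0.18 in LB1 livers and 1.51 and 1.60 in control livers, a difference of -1.13 (SE 0.26, limma adjusted p = 0.0332). In both genes the LB1 arrays lay below both control arrays. Mrpl9 and Mrps18b did not pass without LB1 replicate 2.

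**Figure D2:**
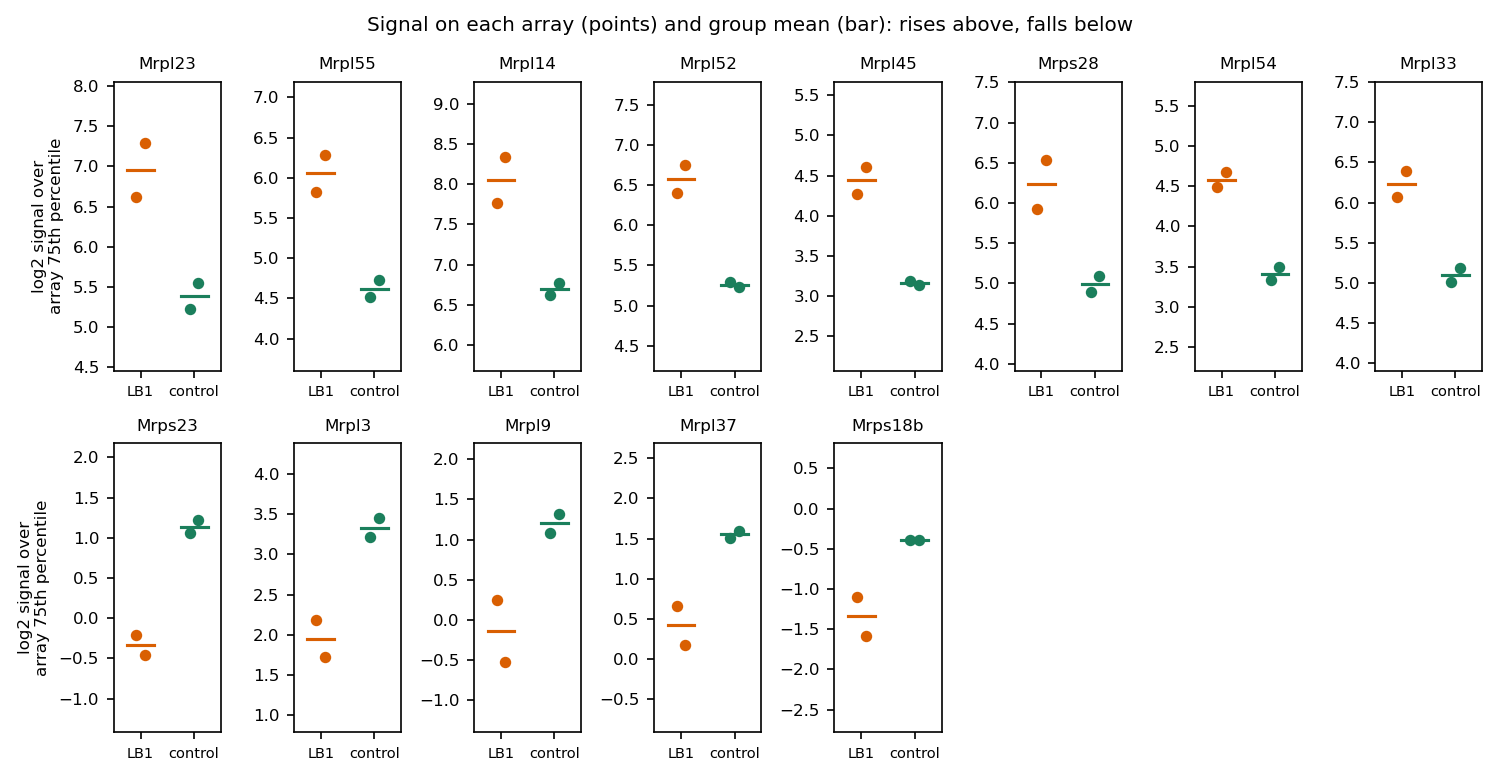
Level on each array (log2 signal over the array's 75th percentile; points) with the group mean (bar), LB1 left of control, for the 8 genes with the largest called rise above and the 5 called falls below, each panel on its own range of equal height. LB1 and control points do not overlap in any of the 13 panels, and with quantile normalization Mrpl14, Mrps28 and Mrpl33 lost their call. With the array median, which lowers every difference by the same amount, all 8 rises lost theirs.

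Mrps18b was the single gene called in both directions. Its protein is one of 3 homologues of bacterial S18 in the mitochondrial ribosome. The probe of the RefSeq transcript had -1.10 and -1.58 in LB1 livers, against -0.39 and -0.40 in control livers, a difference of -0.95 (SE 0.26, limma adjusted p = 0.0457). A probe designed on a cDNA clone and given the same gene name had -0.09 and 0.68 in LB1 livers, against -3.03 and -3.52 in control livers. That is the largest rise of any member probe, 3.57 (SE 0.35, 11.8-fold, limma adjusted p = 0.0201), and it was 2.94 on slide 1 and 4.19 on slide 2.

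The clone's probe lies at chr17:36047384-36047443 (mm9) with its coordinates running along the plus strand, whereas RefSeq places Mrps18b on the minus strand. Of 112 member probes whose strand could be set beside that of RefSeq, 110 ran with their gene, and the exceptions were this probe and the untested probe of the same clone. Whether the clone's probe measures Mrps18b messenger RNA was not tested. The nearest genes with probes, Ppp1r10 on the plus strand (differences -0.24 and -0.76) and Atat1 on the minus strand (-0.49 and -0.15), did not pass. With the opposite-strand probes left out, 17 member probes rose and 13 fell. The sequence of the RefSeq probe, at chr17:36051313-36051461 (mm9, minus strand), is shown as the one that runs with the gene.
Mrps18b probe at base 260: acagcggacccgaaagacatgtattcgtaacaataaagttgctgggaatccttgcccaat

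Probes of the same gene could differ in direction. Of the 30 genes with at least 2 tested probes, 19 had differences of both signs. Mrpl45 was the widest of those on 1 strand: besides the rise above, its probe at base 417 of the transcript had -1.22 and -2.00 in LB1 livers, against -0.51 and -0.46 in control livers. That difference of -1.13 (SE 0.32) did not pass (limma adjusted p = 0.052), though both LB1 arrays lay below both control arrays. Mrpl50, a mitochondrion-specific protein of the large subunit, fell at base 423 (0.24 and 0.00 in LB1 livers, 1.46 and 1.41 in control livers, difference -1.32, SE 0.22, limma adjusted p = 0.023). Its brightest probe, at base 1910, had 3.57 and 3.46 in LB1 livers and 3.51 and 3.46 in control livers, a difference of 0.03 (SE 0.21). The upstream probes of both genes, at chr11:97185202-97185261 (plus strand) and chr4:49527089-49527148 (minus strand, both mm9), are shown because they differ in direction or call with the brightest probe of their gene.
Mrpl45 probe at base 417: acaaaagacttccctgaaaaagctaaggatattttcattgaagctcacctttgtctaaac
Mrpl50 probe at base 423: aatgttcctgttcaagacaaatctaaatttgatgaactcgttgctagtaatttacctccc

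Mrpl44, related to ribonuclease III and mutated in an inherited human deficiency, showed the same order over 3 probes. Its differences were -1.90 at base 373, -1.02 at base 765 and 0.11 at base 1295 of the transcript, and none of the 3 passed in limma (adjusted p 0.0565, 0.0722 and 0.737). The most upstream probe had 0.00 and -1.65 in LB1 livers, against 0.99 and 1.17 in control livers, so LB1 replicate 2 carried most of it. Mrps9, a homologue of bacterial S9, fell at base 657 by a difference of -1.47 (limma adjusted p = 0.0343), and at base 940 the difference was -0.71 (adjusted p = 0.0782).

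Over the 25 genes with at least 2 tested probes on the same RefSeq transcript, the most downstream probe had the higher difference in 16 (64%), by a median of 0.36 (0.24 on slide 1, 0.53 on slide 2). Among the 4003 other genes so covered it was higher in 2313, by a median of 0.20. With quantile normalization the median was 0.37 for the members and 0.25 for the other genes, and with normexp background correction it was 0.46 and -0.18. The order went with brightness: the downstream probe had the higher difference in 15 of the 19 member genes where it was the brighter one and in 1 of the 6 where it was the dimmer, against 66.1% and 36.3% of the other genes, and the part of brightness in it was not tested. Among pairs well above background on all 4 arrays, the reverse order was largest in Mrps5 (1.27 upstream and 0.03 downstream) and Mrps2 (0.47 and -0.41). The downstream probes of Mrpl17 and Mrps25 are among the 13 called falls, but they did not stand well above background on either LB1 array, so that their levels there are only bounds that do not establish a fall and no fold is given. With normexp both were called higher. Their values were -5.41 and -5.05 in LB1 livers, against -3.45 and -4.00 in control livers, for Mrpl17, and -4.54 and -4.95, against -3.71 and -3.84, for Mrps25.

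**Figure D3:**
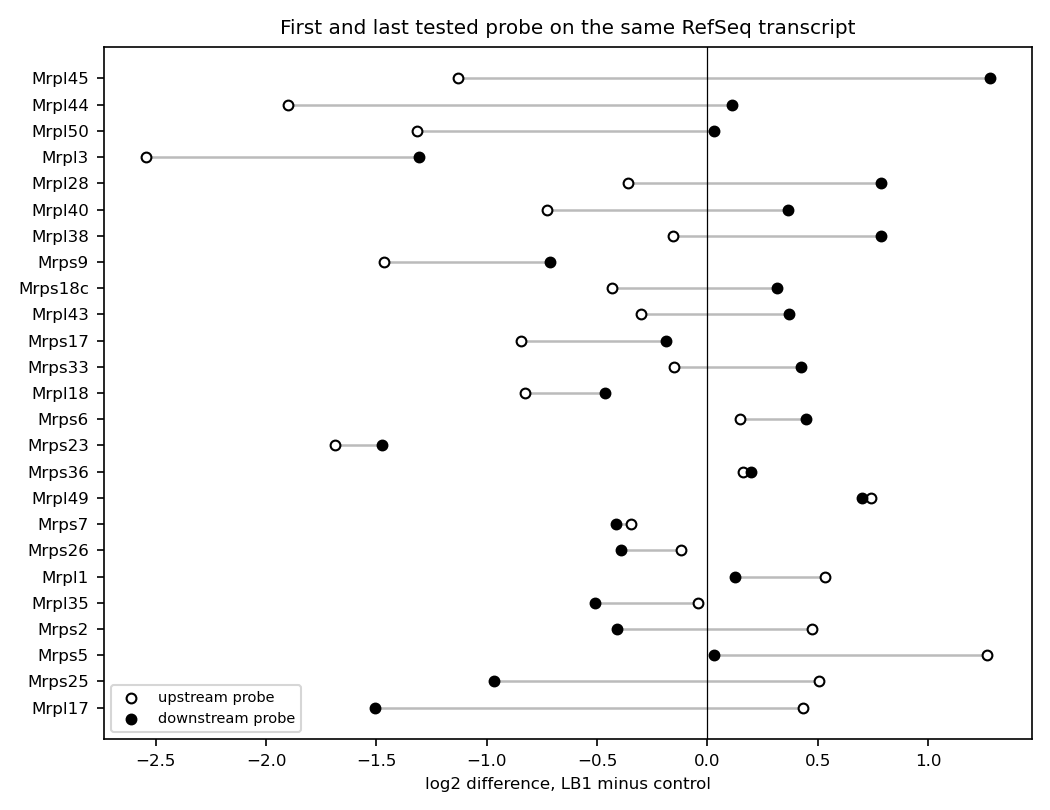
Log2 difference (LB1 minus control) at the most upstream (open) and most downstream (filled) tested probe of each of 25 member genes on the same RefSeq transcript, ordered by downstream minus upstream. The filled point lies to the right of the open one in 16 of the 25 genes. The filled points of Mrpl17 and Mrps25 rest on LB1 levels not well above background.

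The 4 genes with the smallest difference were Mrpl19, Mrpl13, Mrpl50 and Mrpl4, proteins of the large subunit. Mrpl13 had 4.17 and 4.13 in LB1 livers, against 4.07 and 4.19 in control livers, a difference of 0.03 (SE 0.21). Mrpl19 had 0.22 and 0.11 in LB1 livers and 0.21 and 0.08 in control livers, and Mrpl4 had 1.82 and 1.63 in LB1 livers and 1.70 and 1.70 in control livers. The groups overlapped in all 4, whose sign turned under other scalings, and with normexp Mrpl13, Mrpl50 and Mrpl4 were called lower.

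Mrpl12, which also binds the mitochondrial RNA polymerase, had 5.97 and 5.71 in LB1 livers, against 5.61 and 5.93 in control livers (difference 0.07, SE 0.25). Mrps22, mutated in an inherited human deficiency, had 2.11 and 1.65 in LB1 livers and 2.04 and 1.97 in control livers (difference -0.12, SE 0.25). For both genes the LB1 and control arrays overlapped and the test was not passed. Mrps30 had 3.44 and 3.47 in LB1 livers and 3.11 and 3.35 in control livers (0.22, SE 0.22), and Mrps18a had 2.95 and 2.72 in LB1 livers and 2.90 and 3.05 in control livers (-0.14, SE 0.22). Neither passed. Clone probes of Mrps9 and Mrps15 that were not well above background on LB1 arrays did not pass either.

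The members were next set out by where their proteins sit in the particle, in groups drawn up after the values were seen and therefore only described. For comparison, 21.7% of all tested genes rose and 9.78% fell. Of 6 proteins at the tunnel exit 2 rose (Mrpl23 and Mrpl45; median 0.41, from -0.58 to 1.57), and of 6 at the central protuberance 1 rose (Mrpl55; median 0.10). Of 5 in the stalks 1 fell (Mrpl9; median 0.53), and of 5 around the peptidyl transferase centre 1 fell (Mrpl3; median 0.03). In the small subunit 2 of 4 body proteins rose (Mrps12 and Mrps16; median 0.47). Neither passed with quantile normalization (limma adjusted p = 0.0658 and 0.107), and the median of the body proteins was then 0.21. None of 6 head proteins (median -0.38) and none of 5 platform proteins (median 0.19) passed in limma, with 1 of the head proteins lower at an unadjusted p under 0.05. Genes numbered as homologues of bacterial proteins (45) counted 10 rises and 2 falls (median 0.15), and the 30 others, which include Mrps18a and Mrps18b, 4 rises and 3 falls (median 0.07).

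Rises and falls lay at different brightness. Of the 40 brightest tested member probes 13 rose and 0 fell, with a median difference of 0.43. Of the 39 dimmest 4 rose and 10 fell (median -0.23), and of the 39 between them 1 rose and 3 fell (median -0.35). The 10 include the downstream probes of Mrpl17 and Mrps25, which were not well above background on LB1 arrays and do not establish a fall. The median of the brightest probes was 0.18 with quantile normalization and -0.12 with normexp. Across member probes the mean level and the difference had a Spearman correlation of 0.43 (n = 118), and across all tested probes one of 0.02 (n = 22969), all from the same 4 arrays. With normexp these were 0.02 and -0.69. Across member genes by their brightest probe it was 0.66 (n = 75), or 0.49 with normexp. Brightness was read from the same arrays as the difference, and its part in the direction was not tested.

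**Figure D4:**
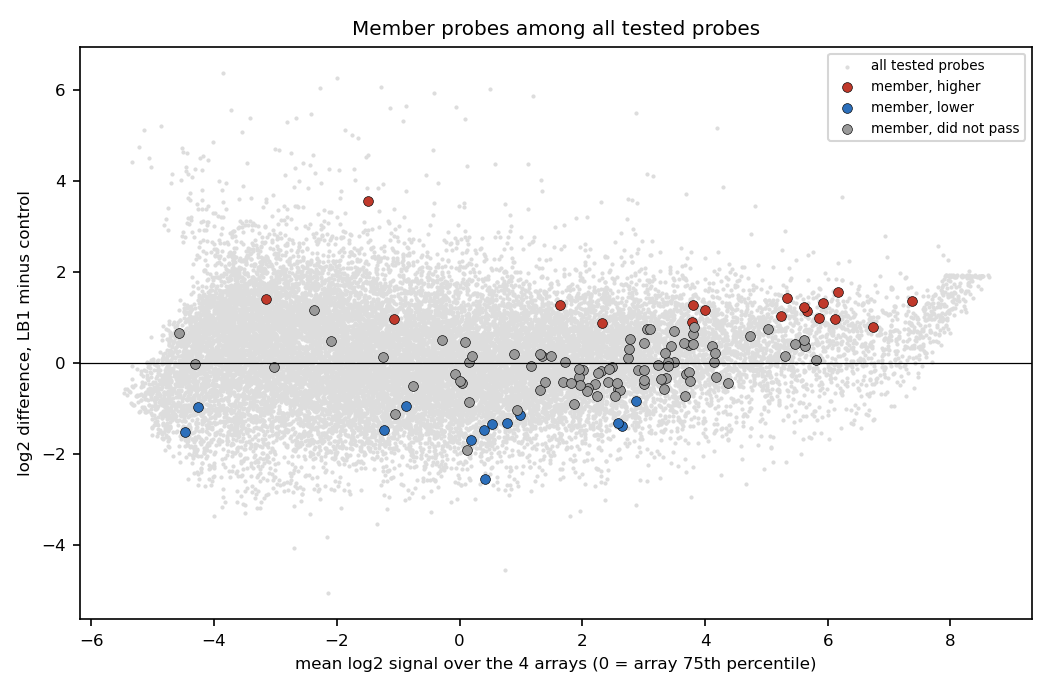
Log2 difference (LB1 minus control) against the mean log2 level over the 4 arrays for all tested probes (light grey) and member probes (red rose, blue fell, dark grey did not pass). Among the 40 brightest member probes 13 rose and none fell, and with normexp background correction the median of these 40 was -0.12.

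No member probe was saturated on any array, whereas 17 of 140 probes of cytosolic ribosomal protein genes (Rpl and Rps) were saturated on at least 1. Of the 128 cytosolic probes tested, 36 rose and 4 fell, where 19.2% of all tested probes rose and 13.2% fell, and the median difference was 0.57. With quantile normalization 6 cytosolic probes were higher and 13 lower, with a median of 0.09. The balance of all tested probes turned over in the same way, to 10.7% higher and 17.3% lower, with a median of -0.087. For the members the median difference was -0.053, and -0.22 with quantile normalization.

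Mitochondrial ribosomal proteins that the name rule leaves out were measured too, as 7 genes. Of these 5 rose and none fell in limma (also 5 and 0 at an unadjusted p under 0.05; median 0.87), but 1 rose with quantile normalization. Among all tested genes 21.7% rose and 9.78% fell, with a median of 0.29. Gadd45gip1, a large-subunit protein, had 5.04 and 5.90 in LB1 livers, against 3.38 and 3.89 in control livers, a difference of 1.83 (SE 0.38, limma adjusted p = 0.0283). Aurkaip1, a small-subunit protein, rose by 1.12 (SE 0.26, limma adjusted p = 0.0348). Both had LB1 arrays above both control arrays. Mrpl42, which the files list under an older name, showed the same split between probes as the members: -0.88 on one probe (SE 0.21, limma adjusted p = 0.035) and 0.64 on the other (SE 0.27, adjusted p = 0.118).

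Genes that work with the mitochondrial ribosome were described by fixed lists. The counts of each list below stand against 21.7% of all tested genes called higher and 9.78% called lower. Of 10 translation factors none rose and 3 fell in limma (1 and 4 at an unadjusted p under 0.05; median -0.21). Gfm1, the elongation factor that moves the ribosome along, had 0.91 and 0.57 in LB1 livers, against 2.22 and 2.48 in control livers (difference -1.60, SE 0.25, limma adjusted p = 0.0219). Mtrf1, a release factor, had a difference of -1.21 (SE 0.26, limma adjusted p = 0.0296).

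Of 22 genes for mitochondrial aminoacyl-tRNA synthetases and amidotransferase subunits, 3 were called higher and 5 lower (median -0.41). Wars2 for tryptophan rose by 1.69 and Aars2 for alanine by 1.38, while Gars for glycine, which also serves the cytosol, had a difference of -1.88 and Rars2 for arginine one of -1.62 (limma adjusted p between 0.0245 and 0.032). Lars2, the other one called higher, was saturated on all 4 arrays and has no fold, and it did not pass with quantile normalization (limma adjusted p = 0.422), where the list gave 2 higher and 6 lower. Of 24 genes for assembly and RNA modification 2 rose and 3 fell (median -0.43). Slirp, which stabilises mitochondrial messenger RNAs, rose by 1.31 and Mterf4, which guides a ribosomal RNA methyltransferase, by 1.1. Mrm2, a ribosomal RNA methyltransferase, had a difference of -1.16 and the GTPase Gtpbp10 one of -2.79, a gene well above background on 1 LB1 array only.

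Of 10 genes for copying and transcription of mitochondrial DNA none rose and 2 fell in limma (2 and 3 at an unadjusted p under 0.05; median -0.01). Tefm, the transcription elongation factor, had -1.56 and -2.34 in LB1 livers, against 0.20 and 0.47 in control livers (difference -2.29, SE 0.33, limma adjusted p = 0.0216), and Polg, the DNA polymerase, had a difference of -0.95. Of 9 regulators 2 rose, Nrf1 by 1.0 and Ppargc1a, the coactivator that drives mitochondrial biogenesis, by 0.86. Gabpb1, a subunit of the ETS-family factor GABP, was called lower in LB1 livers, where it was not well above background. Its LB1 values of -3.74 and -4.39, against -2.39 and -2.29 in control livers, are therefore bounds. The call does not establish a fall of Gabpb1, and its fold is left out.

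Markers of some other cell types moved with the groups as well, where 21.7% of all tested genes rose and 9.78% fell. Of 12 mesothelium markers 9 were tested, 8 rose and none fell (limma; all 9 rose at an unadjusted p under 0.05), and their summed linear level was 15.2 and 51.7 on LB1 arrays, against 1.68 and 0.290 on control arrays. Of these markers Bnc1, Lrrn4, Upk1b and Wt1 were not well above background on control arrays and Bnc1 not on LB1 arrays either. Of 5 lymphocyte markers 3 rose, and 1 with quantile normalization. Of 3 tested red cell markers all 3 rose, but Hbb-b1 and Hba-a1 were saturated on some arrays, and with quantile normalization 1, Alas2, rose. Of 3 tested striated muscle markers 2 rose under both scalings, of which Acta1 was not well above background on control arrays. Of 6 hepatocyte markers 2 passed as higher and 1 as lower, and 4 were saturated on at least 1 array. The lower one was Cps1, saturated on 1 control array, with a difference of -1.24, or -2.15 with quantile normalization. The higher ones were Alb, saturated on all 4 arrays, and Apoa1, saturated on 3, so that neither has a measured difference, and none was higher with quantile normalization (adjusted p = 0.313 for Alb and 0.340 for Apoa1 in limma). Of 5 Kupffer cell markers 1 fell. None of 5 sinusoidal endothelium markers passed, though 2 were lower with quantile normalization. None of 2 tested exocrine pancreas markers and none of 2 tested adipocyte markers passed under either scaling. The part of other cell types in the members' differences was not tested.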

How the data were processed

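Liver RNA of 2 LB1 and 2 control mice was labelled with Cy3 and hybridised to 1 array each. The deposited scanner files hold spot intensity from Feature Extraction 10.5.1.1 on a G2505C scanner, with probe coordinates on mm9, per the file headers, whereas the design text names other versions of both. The software had taken off background and detrended each array's intensity, per the file headers, with no step between arrays. A further deposited table, of all 4 arrays, lists mean spot intensity in whole numbers, each within rounding of the scanner file's mean signal in 100% of spots.

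From these files, control spots and outlier spots were left out (43379 non-control spots, no member spot lost), log2 signals were set relative to the array's 75th percentile, and repeat spots of a probe were averaged. The difference LB1 minus control was fitted in limma 3.58.1 (lmFit, eBayes; R 4.3.3), with Benjamini-Hochberg adjustment over all 22969 tested probes and a threshold of 0.05. Genes were named through RefSeq accessions (24844 probes), current symbols (6045) or unique older symbols (1810), and otherwise as in the files (8475).

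The genes named are the 8 largest called rises and up to 8 called falls without overlap of the groups, the 4 smallest differences, genes called in both directions, probes with only a bound, 8 genes of known role or position, and up to 2 called genes per direction of each related list. Other genes and probes were named after their values were seen. The members and the gene lists were chosen with earlier results of these data known.

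Each slide held the LB1 and control array of 1 replicate number, per the file headers. The slide is therefore a batch that same-numbered arrays share, and the labels name no other. Deviations of same-numbered arrays from their group means correlated at 0.15 over probes in 2 pairs. The reported fit did not take the numbers as pairs, and the fit with the slide as a block did. The number of arrays limits the precision. Alternatives were normexp background correction (offset 50), quantile normalization, the array median, other filters on dim probes, the series table, the slide as a block, eBayes with trend and robust settings, the methods' t-test, and each array left out.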

Additional observations from a re-analysis of the deposited data

How the results depend on the processing

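With quantile normalization 9 member probes rose (7 large-subunit and 2 small-subunit) and 6 genes rose. With the array median as the reference 1 member probe rose and 41 fell (0 and 25 in the large subunit, 1 and 16 in the small), 0 genes rose and 18 fell in limma (1 and 24 at an unadjusted p under 0.05), and the member median was -0.69, where that of all tested probes moved to -0.47. With normexp 25 probes rose (14 large, 11 small) and 54 fell (32 large, 22 small), where 49.4% of all tested probes rose and 20.2% fell. By gene 13 rose and 32 fell, and the member median was -0.32, where that of all tested probes was 0.44. With the rounded values of the whole series 25 probes rose (13 large, 12 small) and 40 fell (24 large, 16 small), where 46.5% of all rose and 16.4% fell. By gene 14 rose and 21 fell. Those values are mean signals without the background taken off. Shares of all tested genes under the array median, normexp and the series values are not given here. The methods' t-test with at least a 2-fold change gave 9 higher and 8 lower probes at an unadjusted threshold, and 0 and 0 after Benjamini-Hochberg. The share of all tested probes that met the unadjusted rule is not given here, so these counts cannot be set against it. Relative to all tested probes the member median was -0.21 as reported, -0.13 with quantile normalization and -0.76 with normexp. With 1 probe per gene the gap between the medians of the subunits was 0.49. With the replicate block, 14 probes rose and 12 fell, 11 genes rose and 4 fell, and Mrpl21, Mrpl28, Mrps12 and Mrps18b lost their calls. The causes were not tested.

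The following genes, none called in the reported comparison, changed sign under another setting. With normexp Mrpl19 was at -0.044, Mrpl13 at -0.51, Mrpl50 at -0.51, Mrpl4 at -0.39, Mrpl17 at -0.12, Mrps30 at -0.30, Mrpl12 at -0.48 and Mrpl44 at -0.38, of which Mrpl13, Mrpl50, Mrpl4 and Mrpl12 were called lower (limma adjusted p between 0.0105 and 0.0481). With quantile normalization Mrpl13 was at -0.26, Mrpl50 at -0.17, Mrpl4 at -0.017, Mrpl12 at -0.33 and Mrpl44 at -0.00060. With the array median Mrpl19 was at -0.62, Mrpl13 at -0.61, Mrpl50 at -0.61, Mrpl4 at -0.61, Mrpl17 at -0.20, Mrps25 at -0.13, Mrps30 at -0.41, Mrpl12 at -0.57 and Mrpl44 at -0.53. With the series table Mrpl19 was at -0.018, Mrpl13 at -0.28, Mrpl50 at -0.29, Mrpl4 at -0.21, Mrps30 at -0.071, Mrpl12 at -0.23 and Mrpl44 at -0.16.

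Leaving out 1 array at a time gave 0 to 21 higher and 0 to 27 lower probes (0 to 15 and 0 to 17 in the large subunit, 0 to 6 and 0 to 10 in the small), and 0 to 17 higher and 0 to 9 lower genes. Without control replicate 1, 1 probe call was kept, and without control replicate 2 none (11 higher and 11 lower, and 11 higher and 10 lower, at an unadjusted p under 0.05), fits in which the lone control is assumed to vary like the LB1 arrays. The upper ends of the ranges came from the fit without LB1 replicate 1, where the lone LB1 array is assumed to vary like the control arrays. More of all tested probes passed in that fit than in the reported comparison, in both directions. The upper ends therefore do not show that more members changed. Over the fits with 1 array left out Mrpl19 ranged from -0.047 to 0.083, Mrpl13 from -0.031 to 0.082, Mrpl50 from -0.024 to 0.082, Mrpl4 from -0.065 to 0.12, Mrps15 from -0.23 to 0.10, Mrpl12 from -0.096 to 0.23, Mrpl44 from -0.074 to 0.29 and Mrps22 from -0.35 to 0.11.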
